A study of Homo sapiens with 2 samples.

Results

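The 10 genes described here encode the machinery that carries a cell from G1 into S phase. They are the D-type cyclins CCND1, CCND2 and CCND3, their partner kinases CDK4 and CDK6, the E-type cyclins CCNE1 and CCNE2 with their partner CDK2, the retinoblastoma protein RB1, and CDKN1B, which encodes the CDK inhibitor p27. They were picked by gene symbol, all 10 were found in the deposited FPKM tables, and they belong to a count table of 61806 Ensembl genes. HEL is a human erythroleukemia cell line, labelled wild type. It was grown with L1, a derivative of diindolylmethane, at 1 µM for 24 h, or with 0.5% DMSO for 24 h. The label of the L1 sample does not give its own percentage of DMSO. Messenger RNA was captured on beads, and 1 library of each condition was sequenced, so the data describe 1 culture of 1 cell line per condition.

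D-type cyclins are made in response to growth signals and activate CDK4 and CDK6. These kinases begin the phosphorylation of RB1, which otherwise holds E2F transcription factors inactive. Freed E2F raises the E-type cyclins, which activate CDK2 and complete the step into S phase, while p27 binds and restrains the cyclin E and CDK2 complex. D-type cyclins and CDK6 are also known for their part in the expansion of erythroid and other blood progenitors.

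Total counts were 32556872 for DMSO and 27135647 for L1, and each of the 10 genes had at least 213 counts in both. Counts were scaled by edgeR's TMM method, which took the DMSO library as 1.16 times as large as the L1 library. Differences are given as the log2 ratio of L1 over DMSO with an exact 95% interval (Clopper-Pearson). The interval covers counting error only. There was 1 library per condition, so variation between cultures is unknown, no test was run, and the differences have no replicate check. In bulk RNA, fewer cells of a kind and less RNA per cell cannot be told apart. Of 9 erythroid markers, all had counts in both libraries, among them GATA1 with 6469 and 5923 and KLF1 with 3519 and 2864. The megakaryocytic marker ITGA2B had 40168 and 35288 counts, while PF4 was at 0. The T lymphoid markers CD3E and CD3D, the B lymphoid marker MS4A1 and the myeloid markers MPO and ELANE were at 0 in both libraries. The lymphoid markers CD2 and CD79A and the myeloid marker CD14 had at most 113 counts.

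The L1 library held less mRNA of CCND1, CCNE1, CDK4, CDK2 and CCNE2, and nearly the same level of CCND2, CCND3, RB1 and CDKN1B. CDK6 was slightly higher. The lower levels in the L1 library ran from 48.7% below DMSO for CCND1 to 20.0% below for CCNE2. The 10 genes had a median log2 ratio of -0.21, against -0.0040 for the 18123 genes that reached 10 counts in either library. Both medians were computed with a prior count of 2 added to the scaled counts.

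None of the 10 genes differed 2-fold in either direction. Of the 18123 genes, 7.12% were 2-fold or more above DMSO and 4.83% were 2-fold or more below it. Among the 12365 genes with at least 100 counts in either library, these shares were 3.13% and 2.92%. A limit of 1.5-fold put 3 of the 10 genes lower, CCND1, CCNE1 and CDK4, where 11.4% of all genes were that much lower. The counting interval lay wholly below 0 for 6 of the 10 genes, the 5 lower ones and RB1, and wholly above 0 for CDK6 alone. Over all 18123 genes these shares were 28.6% below and 26.8% above. That background includes many genes with fewer counts than any of the 10, whose intervals are wider.

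**Figure D1:**
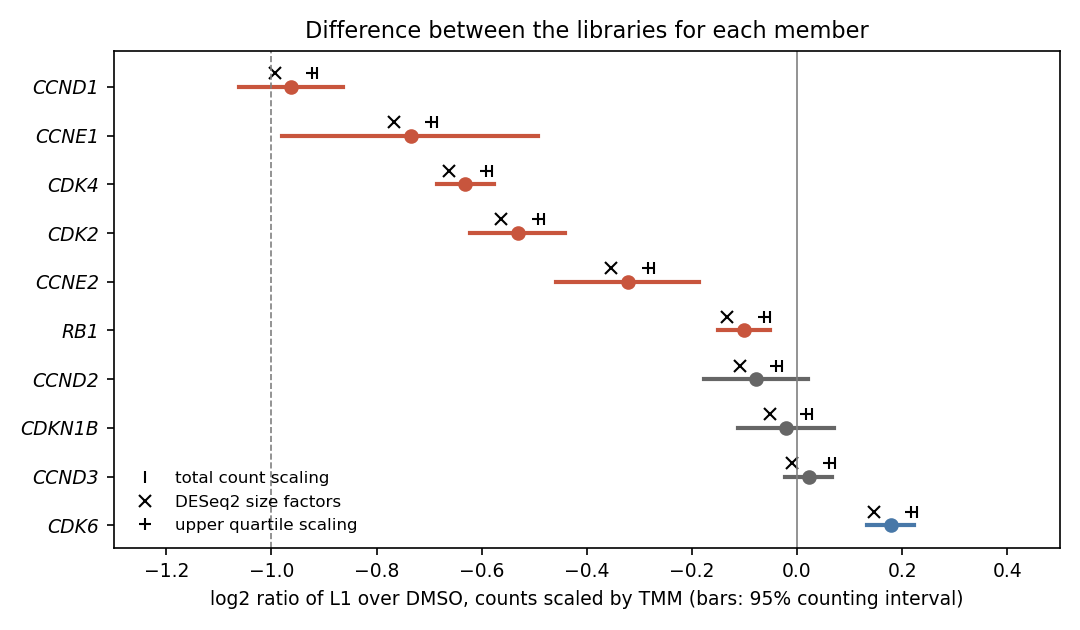
Log2 ratio of L1 over DMSO (x axis) for each of the 10 genes, from counts scaled by TMM. Points are the ratios, bars are exact 95% counting intervals, the small marks above each bar are the same ratio under other scalings, and the dashed line is 2-fold lower. Red bars lie wholly below 0, blue wholly above and grey bars include it. CCND1 sat nearest that line at -0.96, and CDK6 was the only gene with its whole bar above 0.

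Per length of transcript, CDK4 was the most abundant of the 10 genes in both libraries and CCNE1 the least. On the deposited FPKM scale the DMSO library held CDK4 at 77.8, CCND3 at 47.7 and RB1 at 36.2. CDK6 at 21.8, CDK2 at 21.2 and CCND1 at 18.0 followed. CCNE2 at 7.66, CCND2 at 7.31, CDKN1B at 7.09 and CCNE1 at 5.25 were lowest. In the L1 library the order of the first 6 genes and the place of CCNE1 were the same. CDKN1B and CCND2 stood above CCNE2 there. Whether neighbours in this order differ could not be judged, since the spread between cultures was not measured.

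The level of CDKN1B relative to the other genes depends on the gene length used. Its FPKM corresponds to a length of 9194 bases, 3.27 times the 2811 bases of its merged exons in GENCODE release 29. For the other 9 genes this quotient lay between 0.959 and 1.11. With the GENCODE length the level of CDKN1B was 23.2 on the FPKM scale in DMSO and 22.9 in L1, close to CDK6 and CDK2 in DMSO rather than to CCND2. The ratio between the libraries does not depend on the length.

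**Figure D2:**
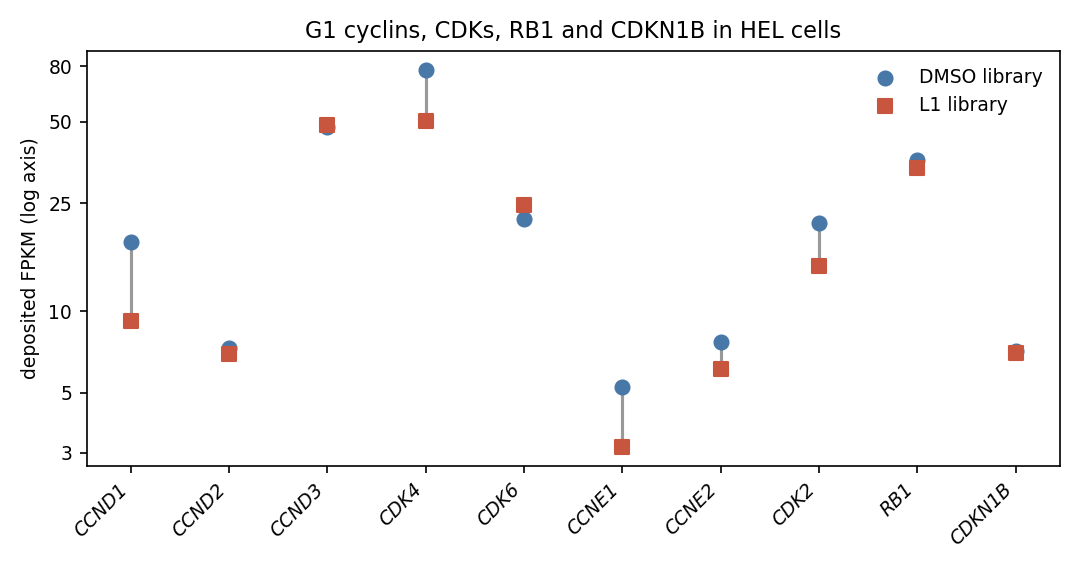
Deposited FPKM (y axis, log scale) of the 10 genes, with a circle for the DMSO library and a square for the L1 library, joined by a line. CCND1 went from 18.0 to 9.22 and CDK4 from 77.8 to 50.3, while the symbols of CCND3, RB1, CCND2 and CDKN1B nearly coincide.

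Among the D-type cyclins the difference lay in CCND1. CCND1 (ENSG00000110092, chromosome 11 from 69641087 to 69654474 on GRCh38, GENCODE release 29) encodes cyclin D1. The DMSO library gave it 2719 counts and the L1 library 1204, or 18.0 and 9.22 FPKM. Its log2 ratio was -0.96, with an interval from -1.06 to -0.86 that includes 2-fold. Of the 12365 genes with at least 100 counts in 1 library, 3.16% had a lower ratio. Exons of CCND1 overlap 497 bases of LTO1 on the opposite strand, which had 411 and 396 counts. Whether the authors' counting used strand is not stated.

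CCND2 (ENSG00000118971, chromosome 12 from 4273772 to 4305350) encodes cyclin D2 and was counted 1857 times in DMSO and 1518 times in L1. Its FPKM was 7.31 and 6.93. The log2 ratio was -0.078, with 0 inside the interval from -0.18 to 0.021. Another gene's transcripts share 13.5% of its 31-base words, the highest share among the 10. CCND3 (ENSG00000112576, chromosome 6 from 41934933 to 42050357) encodes cyclin D3. Its mRNA had the highest FPKM of the D-type cyclins in both libraries. Counts were 8737 for DMSO and 7655 for L1, and FPKM was 47.7 and 48.5. The log2 ratio was 0.022 (interval -0.022 to 0.067), and its sign changed with the scaling, to -0.0089 with DESeq2 size factors.

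The makeup of the D-type cyclin mRNA pool therefore differed between the libraries. Summed over the 3 genes, FPKM was 73.0 in DMSO and 64.6 in L1. CCND1 made up 24.6% of the sum in DMSO and 14.3% in L1, while CCND3 made up 65.4% and 75.0%. CCND2 held 10.0% and 10.7%. The log2 ratio of CCND1 minus that of CCND3 was -0.98, with an exact counting interval from -1.09 to -0.88. Minus that of CCND2 it was -0.88, with an interval from -1.02 to -0.74. Between CCND2 and CCND3 the interval of the difference ran from -0.21 to 0.0083 and includes 0. These differences within the same libraries do not depend on how the libraries are scaled. They are 3 of 5 pairs of related genes compared in this way.

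**Figure D3:**
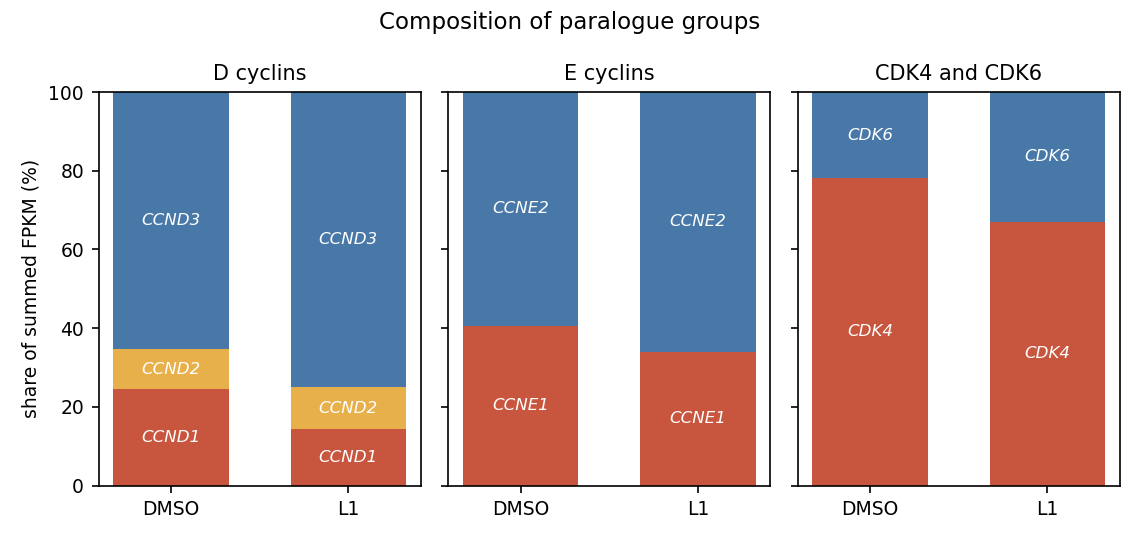
Share of summed FPKM (y axis, percent) held by each gene within the D-type cyclins, the E-type cyclins and the pair CDK4 and CDK6, in the DMSO and the L1 library. CCND1 went from 24.6% to 14.3% of the D-type cyclins, CCNE1 from 40.7% to 34.0% of the E-type cyclins, and CDK4 from 78.1% to 67.1% of its pair.

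The partner kinases of the D-type cyclins went opposite ways. CDK4 (ENSG00000135446, chromosome 12 from 57747727 to 57756013) went from 7655 DMSO counts to 4265 L1 counts, or from 77.8 to 50.3 FPKM. Its log2 ratio was -0.63 (interval -0.69 to -0.58), a level 35.4% below DMSO. CDK6 (ENSG00000105810, chromosome 7 from 92604921 to 92836594) was counted 8483 times in DMSO and 8279 times in the smaller L1 library, or 21.8 and 24.7 FPKM. Its log2 ratio was 0.18 (interval 0.13 to 0.22), a level 13.1% above DMSO. The log2 ratio of CDK4 minus that of CDK6 was -0.81, with an interval from -0.88 to -0.74. CDK4 remained the larger part of the pair, with 78.1% of the summed FPKM in DMSO and 67.1% in L1. The sum went from 99.6 to 74.9.

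Exons of CDK4 overlap 1369 bases of TSPAN31 on the opposite strand. Counts of TSPAN31 were 789 for DMSO and 295 for L1 and its log2 ratio was -1.21 (-1.40 to -1.01), so the overlapping neighbour was lower in the L1 library as well. With TSPAN31 summed into CDK4 the log2 ratio was -0.68, against -0.63 for CDK4 alone. Without knowledge of strand, reads from the shared part cannot be assigned to either gene. Their own part in the ratio of CDK4 was not tested.

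The start regions of CDK4 and CDK6 are shown because these related genes differed in ratio. RefSeq windows of 300 bases, from 250 before to 50 after a listed start, were available for 6 of the 10 genes (GRCh38.p14), with 9 windows in all. CCND1, CCND2, CCNE2 and CDK2 have none. No window of the 6 genes held the E2F site letters TTTCCCGC, TTTGGCGC, TTTCGCGC or TTTGCCGC on either strand, and 3.31% of the 35116 windows of all genes held at least 1. The only window of RB1 begins at base 48476200 of chromosome 13, far inside the gene, which starts at 48303726. The E-box letters CACGTG read the same on both strands and can be bound by MYC with MAX and by other factors of that family. They were looked for after the windows had been seen. CDK4 held 3 of them, CDK6 held 1, and the other 4 genes held 0. Of all windows, 7.26% held at least 1 E-box and 0.0940% held 3 or more. The cut of 3 equals the number found in CDK4 itself, so the second share is no test of CDK4. Each match is printed 5′ to 3′ on the minus strand, the strand of both genes, with the E-box in capitals.

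CDK4, chr12:57752516-57752531: gcggtCACGTGtgata
CDK4, chr12:57752496-57752511: cagatCACGTGgctgc
CDK4, chr12:57752401-57752416: gcggtCACGTGcccag
CDK6, chr7:92836533-92836548: gcggaCACGTGcggag

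The CDK4 matches begin 216, 196 and 101 bases before the RefSeq start, and the CDK6 match lies after its start. All 4 printed stretches overlap an exon of the gene in GENCODE release 29, whose starts lie farther upstream. A match describes the letters only, since binding was not measured.

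Both E-type cyclins and their partner kinase were lower in the L1 library. CCNE1 (ENSG00000105173, chromosome 19 from 29811898 to 29824308) encodes cyclin E1 and had the fewest counts of the 10 genes, 411 in DMSO and 213 in L1. Its FPKM was 5.25 and 3.16. The log2 ratio was -0.74, and no other gene of the 10 had as wide an interval (-0.98 to -0.49). CCNE2 (ENSG00000175305, chromosome 8 from 94879770 to 94896678) encodes cyclin E2 and went from 1071 DMSO counts to 739 L1 counts, or from 7.66 to 6.13 FPKM. Its log2 ratio was -0.32 (interval -0.46 to -0.19). The log2 ratio of CCNE1 minus that of CCNE2 was -0.41, with an interval from -0.70 to -0.13. CCNE1 made up 40.7% of the summed E-type cyclin FPKM in DMSO and 34.0% in L1, and the sum went from 12.9 to 9.28.

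The value of CCNE2 is less certain than its interval shows. Its exons overlap 1629 bases of INTS8 on the opposite strand, and INTS8 was counted 1526 times in DMSO and 1627 times in L1, for a log2 ratio of 0.31. With INTS8 and a second short overlapping gene summed into CCNE2, the log2 ratio was 0.081. INTS8 had more counts than CCNE2 and a higher ratio, so this sum had to lie above CCNE2 alone. It includes INTS8 reads from outside the shared bases and does not show how many reads were assigned to the wrong gene. The part of shared reads in the ratio of CCNE2 was not tested.

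CDK2 (ENSG00000123374, chromosome 12 from 55966769 to 55972784), the kinase that E-type cyclins activate, went from 2619 DMSO counts to 1563 L1 counts. Its FPKM was 21.2 and 14.7. The log2 ratio was -0.53 (interval -0.62 to -0.44), a level 30.8% below DMSO. The genes that overlap its exons on the opposite strand, PMEL and an antisense RNA, had at most 73 counts. Of the genes with at least 100 counts, 7.25% had a lower ratio than CDK4, 9.71% a lower ratio than CDK2 and 5.34% a lower ratio than CCNE1.

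RB1 (ENSG00000139687, chromosome 13 from 48303726 to 48599436), the substrate of these kinases, was counted 7397 times in DMSO and 5948 times in L1, or 36.2 and 33.7 FPKM. The log2 ratio was -0.10 (interval -0.15 to -0.052), so its level was 6.79% below DMSO. That difference is of the size of the choice of scaling, which moved it between -0.13 and -0.052. CDKN1B (ENSG00000111276, chromosome 12 from 12715058 to 12722371) was counted 2086 times in DMSO and 1774 times in L1, or 7.09 and 6.99 FPKM. The log2 ratio was -0.021, with an interval from -0.11 to 0.071, and its sign changed to 0.029 with total count scaling. On counting error alone, the CDKN1B level in L1 lay between 0.925 and 1.05 times that in DMSO. No other gene overlaps the exons of RB1 or CDKN1B, and no 31-base word of their transcripts occurs in another gene.

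**Figure D4:**
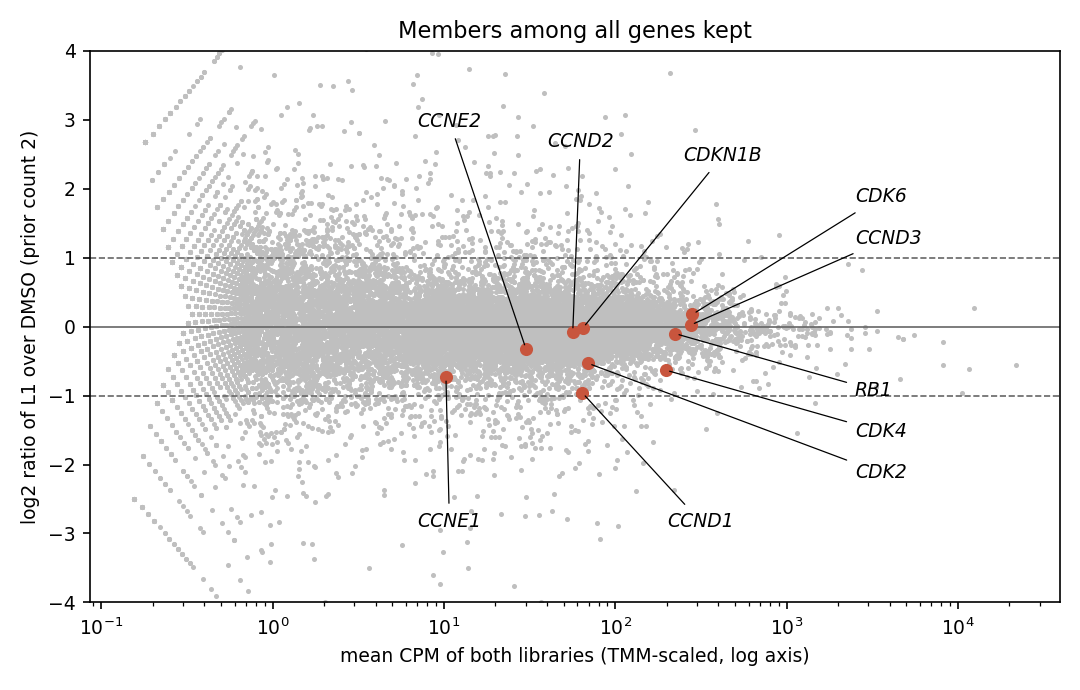
Log2 ratio of L1 over DMSO with a prior count of 2 (y axis) against the mean CPM of both libraries (x axis, log scale) for the 18123 genes kept (grey) and the 10 genes described (red). Dashed lines are 2-fold, and 81 genes beyond a log2 ratio of 4 in either direction are not drawn. CCND1, CCNE1, CDK4 and CDK2 lie in the lower part of the grey cloud, above the lower dashed line.

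Genes around these 10 were described as lists from general knowledge of the pathway. The counts per list are to be read beside the shares over all 18123 genes. There the interval lay below 0 for 28.6% and above 0 for 26.8%. Past 2-fold were 7.12% above DMSO and 4.83% below it. That background includes many genes with fewer counts than most listed genes, whose intervals are wider. The share of intervals that exclude 0 was not computed for genes of like depth, so the interval counts per list are description only. Of the 6 other CDK inhibitors, 3 had enough counts. CDKN1A, which encodes p21, had few counts, 140 in DMSO and 267 in L1, and a log2 ratio of 1.14 (interval 0.84 to 1.45). It was the only inhibitor at least 2-fold higher. CDKN2C, which encodes the CDK4 and CDK6 inhibitor p18, was abundant, with 49.0 FPKM in DMSO and 43.0 in L1 and a log2 ratio of -0.19. CDKN2D, which encodes p19, had a log2 ratio of -0.46, with 22.8 and 16.6 FPKM. CDKN2A had 7 counts in DMSO and 5 in L1, CDKN2B had 1 and 3, and CDKN1C had 0 in both.

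The 12 genes of the RB family and of E2F factors had a median log2 ratio of -0.061. The interval was below 0 for 6 of them and above 0 for 2, E2F4 at 0.49 and E2F6 at 0.21. The lowest were E2F8 at -1.03 (897 counts in DMSO, 379 in L1), E2F7 at -0.70 and E2F2 at -0.59. E2F7 and E2F8 are repressors that E2F itself is known to raise. E2F8 was the only gene of the list past 2-fold. The 20 targets of E2F needed for S phase entry had a median of -0.34, with the interval below 0 for 16 and above 0 for 1. TYMS, which makes thymidylate, was lowest at -0.75, followed by the replication licensing factors CDT1 at -0.56 and CDC6 at -0.50. GINS1 went the other way, from 631 to 1122 counts and a log2 ratio of 1.04.

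The enzymes that activate CDKs were lower on balance, with a median of -0.25 over 6 genes. CDC25B, a phosphatase that removes inhibitory phosphate from CDKs, was lowest at -0.80, and 4 of the 6 had the interval below 0. CDC25C had -0.31 and CCNH, the cyclin of the CDK-activating kinase, had -0.26. None of this list was past 2-fold.

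The genes that degrade p27 and G1 cyclins had a median of 0.040 over 12 genes, with the interval above 0 for 5 and below 0 for 3, and none past 2-fold. CKS2, a small CDK-binding protein, went from 1678 DMSO counts to 2444 L1 counts with a log2 ratio of 0.76, and the ubiquitin ligase subunits SKP1 and CUL1 had 0.44 and 0.37. SKP2, the ligase subunit that recognises p27, was lower in the L1 library at -0.60 (1402 counts in DMSO, 797 in L1), and CKS1B, which helps it bind p27, had -0.38. Of the FOXO factors, which can raise CDKN1B transcription, FOXO4 had a log2 ratio of 0.87 (341 counts in DMSO, 539 in L1) and FOXO3 had 0.35. FOXO1 had 67 and 46 counts, with an interval that includes 0.

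The cyclins and kinases of S, G2 and M phase were higher in some cases and lower in others. Their median was 0.072 over 12 genes, with the interval above 0 for 6 and below 0 for 4, and none was past 2-fold. CCNB1, the mitotic cyclin B1, went from 3170 DMSO counts to 4624 L1 counts, for a log2 ratio of 0.76. CDC20, which activates the anaphase-promoting complex, had 0.73 and the mitotic kinase AURKA had 0.55. The 4 genes below 0 were PKMYT1, a kinase that inhibits CDK1, at -0.58, the mitotic kinase AURKB at -0.57, CDK1 at -0.48 and CCNF, which encodes cyclin F, at -0.40. Whether this list differs from the G1 genes was not tested, and the share of cells in each phase is not measured by these libraries.

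**Figure D5:**
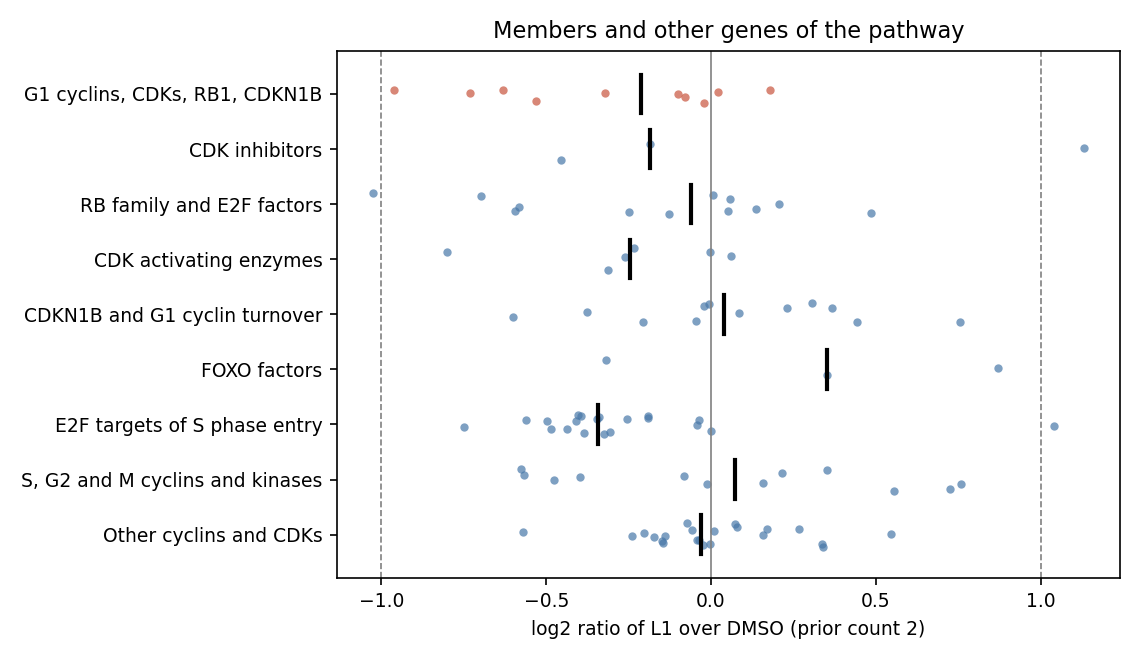
Log2 ratio of L1 over DMSO with a prior count of 2 (x axis) for the genes described (red) and the other gene lists (blue), with 1 point per gene that reached 10 counts in either library. Black bars are list medians and dashed lines are 2-fold. The median was -0.21 for the 10 genes, -0.34 for the S phase entry targets and 0.072 for the S, G2 and M list.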

How the data were processed

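Per the labels, total RNA of HEL cells was enriched for mRNA and sequenced, and the submitters' processing notes name fastp 2.0, HISAT2 2.1.0, StringTie and hg38. The annotation release, the counting program and its strand setting are not given in the sources used here. The authors deposited raw counts of 61806 genes, without normalization, and FPKM values of 13924 genes, which carry the same library ratio (1.16) as TMM. No rows lacked a gene identifier.

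Counts were scaled with edgeR 4.0.16 (TMM) in R 4.3.3, with DESeq2 1.42.0 size factors, upper quartile and total counts as alternatives. Ratios, intervals and figures used Python 3.11.15, numpy 2.4.6, pandas 2.3.3, scipy 1.17.1 and matplotlib 3.10.9. For ratios over all genes, those that reached 10 counts in either library were kept and a prior count of 2 was added. Ratios of single genes used none. Differences between related genes used the exact conditional interval of the odds ratio. Precision is limited by counting error and, unmeasured, by culture. The scripts were tested on simulated libraries. All 103 listed symbols were found. Genes named beside the 10 are the 3 per list farthest from 0 in the direction of its median, and any past 2-fold. CDKN2A, CDKN2B, CDKN1C, FOXO1, E2F4, E2F6, SKP2, CKS1B, PKMYT1, AURKB, CDK1 and CCNF were added after their values were seen. The members, lists and alternatives were chosen with earlier results of these data known. A marker result is not reported here.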

Additional observations from a re-analysis of the deposited data

How the results depend on the processing

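No paired analysis was possible because the DMSO and L1 groups hold 1 library each. Another scaling moves every log2 ratio by the same amount, 0.050 for total counts, 0.039 for upper quartile and -0.031 for DESeq2 size factors. Total count scaling took CCND3 to 0.072, CDK6 to 0.23 and RB1 to -0.052, at or beyond the edge of their counting intervals. It and upper quartile scaling each put 2 genes, CCND3 and CDK6, at an interval wholly above 0, and DESeq2 size factors put 7 genes wholly below 0 in place of 6, adding CCND2. Summing counts with genes that overlap on either strand took CCND1 to -0.76 and CCNE2 to 0.081, which changes the sign of CCNE2 because the counts of INTS8 are added. Such sums hold all counts of the neighbour, also from outside the shared bases, and do not test misassigned reads. Adding only same-strand overlaps, chosen after seeing the data, affected CCND2 alone and left it at -0.078. The number of members lower was 3 at 1.5-fold, in place of 0 at 2-fold. It was 0 at 2-fold under every other scaling, both FPKM pseudocounts, both prior counts and both minimum counts. The share of all genes at least 2-fold lower ran from 1.10% with log2(FPKM + 1) to 6.59% with no minimum count. Several of these settings could not raise the number of members. Each of the 10 genes had at least 213 counts in both libraries, so neither minimum could remove any. FPKM pseudocounts and the prior count of 5 only pull ratios toward 0. Among the scalings, DESeq2 size factors brought CCND1 nearest to 2-fold lower, at -0.993. The remaining alternatives gave 85 values for the 10 genes, their median and their counts, and 54 for list medians and shares, none of which changed a direction whose interval excluded 0 or left its tolerance. CCNE1, with the fewest counts, is the gene that depth limits most.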

Other observations

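A list of 22 other cyclins and CDKs, many of them known for roles in transcription, had a median log2 ratio of -0.030. The sign of this median changed, to 0.019 with total count scaling and to 0.0081 with upper quartile scaling. None was past 2-fold, and the interval was above 0 for 5, below 0 for 7 and included 0 for 10. Over all 18123 genes, many of them with fewer counts and wider intervals, the interval was above 0 for 26.8% and below 0 for 28.6%. CDK10 was lowest at -0.57, with 1103 counts in DMSO and 640 in L1. CDK9, the kinase of the elongation factor P-TEFb, had -0.24 and CCNI had -0.20. CDK10 was thus the only one of these 22 genes with a ratio as low as that of CDK2, at -0.53.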
